A study of Homo sapiens with 56 samples.

Results

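The response to 2-methylisocitrate (2-MiCit) was compared between HCT116 and LoVo, a pair of established human colon cancer epithelial cell lines, for every gene with enough reads. The measure was the treatment-by-line difference, that is the log2 fold change of 2-MiCit over control in HCT116 minus the same fold change in LoVo, so that a positive value means a more positive effect in HCT116. It was tested for 14918 of the 16485 genes in the authors' table, in 16 of the 56 libraries of the series. The 4 groups were HCT116 with 10 mM 2-MiCit, HCT116 controls given the vehicle (water), LoVo with 10 mM 2-MiCit and LoVo controls given water, with 4 libraries each. The labels give all 16 as wild-type and describe no other agent, allele or chemotherapy drug. The series covers 7 colorectal lines in 14 groups under a title on chemotherapy and a microbial metabolite. How long the cells were treated is not stated in the labels. Nothing says whether the libraries of a group came from separate cultures. The p-values therefore cover the spread among these libraries alone, and that spread may be technical.

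2-MiCit is an intermediate of the methylcitrate cycle, by which bacteria break down propionate. When a human cell runs short of amino acids, or its proteins misfold in the endoplasmic reticulum, the kinases GCN2 and PERK slow translation and the transcription factor ATF4 accumulates. ATF4 binds a composite C/EBP-ATF element in its targets, which include amino acid transporters, enzymes that make asparagine and serine, and the aminoacyl-tRNA synthetases that load each tRNA with its amino acid. A separate transcription factor, p53, induces cell cycle inhibitors such as CDKN1A after damage or stress. Both lines are widely used as colon cancer models that retain normal p53.

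Library totals ran from 13.8 to 19.4 M counts over the 16 libraries. The common biological coefficient of variation was 0.12. Colon epithelial markers were present in both lines, although HCT116 held no reads of KRT20 or CDX1 and at most 0.36 CPM (counts scaled to the library size; the marker values here and below use library totals) of VIL1. The summed level of the 8 of 9 listed epithelial markers in the table was 5343 to 6028 CPM in HCT116 with 2-MiCit and 3679 to 4037 CPM in HCT116 controls, against 7501 to 7912 CPM in LoVo with 2-MiCit and 7754 to 9659 CPM in LoVo controls. KRT8 and KRT18, the simple epithelial keratins, made up most of that sum. The 3 of 6 listed fibroblast markers in the table summed to 16.3 to 22.2 CPM in HCT116 with 2-MiCit and 14.7 to 22.2 CPM in HCT116 controls. They summed to 11.3 to 14.4 CPM in LoVo with 2-MiCit and 12.1 to 14.6 CPM in LoVo controls. The 3 of 5 listed leukocyte markers in the table summed to 5.76 to 7.62 CPM in HCT116 with 2-MiCit and 7.39 to 9.345 CPM in HCT116 controls, and to 14.65 to 17.8 CPM in LoVo with 2-MiCit and 15.3 to 16.8 CPM in LoVo controls. The 2 of 4 neural markers, mostly TUBB3, a neuronal tubulin, summed to 87.3 to 106.7 CPM in HCT116 with 2-MiCit and 129.8 to 144.4 CPM in HCT116 controls. In LoVo the neural sum was 11.8 to 16.5 CPM with 2-MiCit and 12.1 to 15.5 CPM in controls. The 2 of 4 endothelial markers summed to at most 1.01 CPM in any library. Mitochondrially encoded genes took 2.68 to 4.06% of counts in HCT116 with 2-MiCit and 1.63 to 2.72% in HCT116 controls, against 2.46 to 4.37% in LoVo with 2-MiCit and 1.97 to 4.51% in LoVo controls. In each of the 4 groups that share was highest in replicate 1. The part of these shifts in the results below was not tested.

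2-MiCit changed far more genes in HCT116 than in LoVo, and most of the called differences were genes that moved in HCT116 and were not called in LoVo. Calls and adjusted p-values come from edgeR's quasi-likelihood test with Benjamini-Hochberg adjustment over all tested genes, and the threshold was 0.05. In HCT116, 5267 genes changed (35.3%), 2507 upward (16.8%) and 2760 downward (18.5%). In LoVo, 475 genes changed (3.18%), 278 upward (1.86%) and 197 downward (1.32%). The median standard error (SE) of an effect was 0.0987 in HCT116 and 0.0994 in LoVo. Effects throughout are log2 fold changes of 2-MiCit over control, given ± SE. The difference between the lines was called for 1561 genes (10.5%), higher in HCT116 for 718 (4.81%) and lower for 843 (5.65%). It exceeded 2-fold for 103 genes higher in HCT116 and 20 lower. The split into higher and lower depended on the scaling. It was 855 higher and 625 lower with DESeq2's size factors in the same test, and 1135 higher and 448 lower with library totals alone, which moved the median effect over all genes in HCT116 by 0.10 (log2). Without replicate 2 of the HCT116 controls it was 797 higher and 379 lower.

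The 1561 genes fell into classes by the calls within each line. The largest class, 1360 genes, was called in HCT116 and not in LoVo. It held 627 genes that rose and 733 that fell in HCT116, and their median LoVo effects were 0.03 and -0.03 on the log2 scale. A missing call does not show a missing effect. For 281 of the 627 (44.8%) and 513 of the 733 (70.0%) the 95% interval of the LoVo effect lay within 1.2-fold of no change. That share was 29.7% over all tested genes, and this class lacks a LoVo call by definition. A further 87 genes moved the same way in both lines and further in HCT116, 40 upward with median effects of 0.88 in HCT116 and 0.38 in LoVo, and 47 downward with median effects of -0.57 in HCT116 and -0.22 in LoVo. By contrast 30 genes were called in LoVo and not in HCT116, 18 upward and 12 downward, and 18 genes were called in opposite directions. No gene was called in both lines and further in LoVo in this fit, where 17 met that description at an unadjusted p under 0.05. DESeq2 called 2, and alternative edgeR fits called up to 6. For 66 genes the difference was called although neither line's own effect was. The smaller classes depended on single libraries. Without replicate 2 of LoVo with 2-MiCit, 18 genes were further in HCT116, 12 were called in LoVo and not in HCT116, and 4 were opposite. Without replicate 3 of the LoVo controls these counts were 24, 15 and 4. Of the 18 opposite genes, 16 had a called difference in every alternative, so that what varied for these was a call within a line. It was not always the LoVo call. LIMK2 kept the class in 18 of 27 alternatives although its LoVo adjusted p was at most 0.0486.

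**Figure D1:**
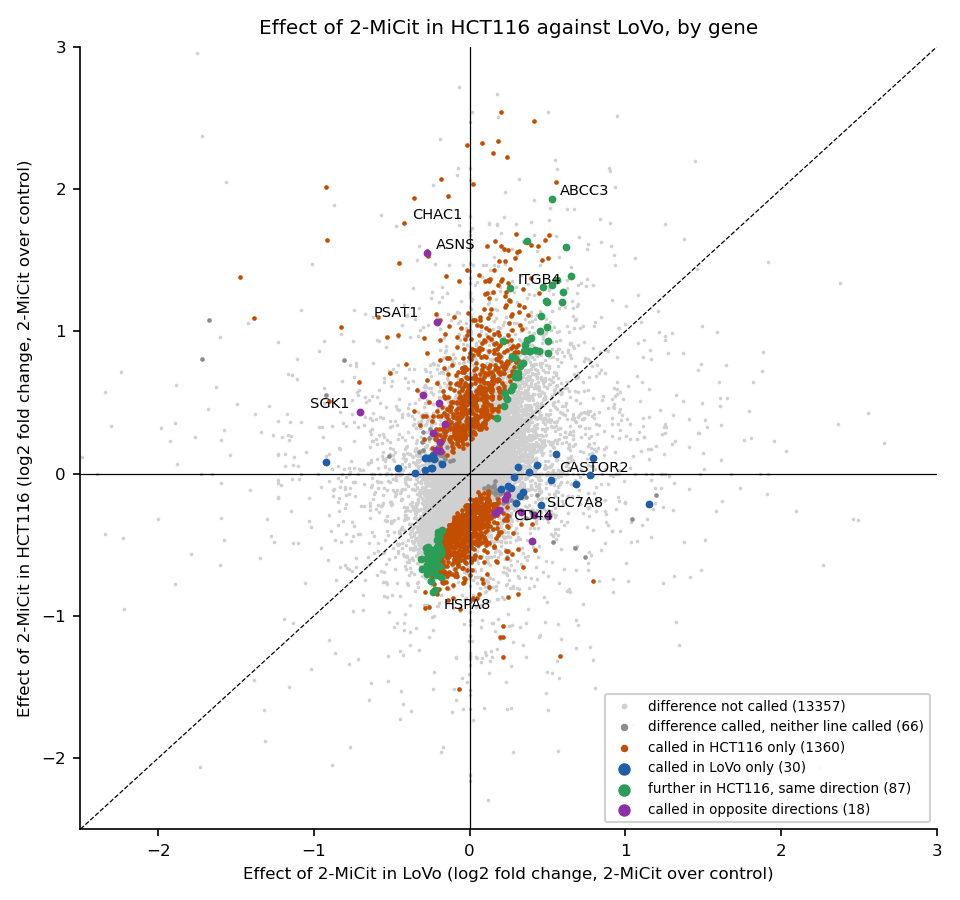
Log2 fold change of 2-MiCit over control in LoVo (x axis) and HCT116 (y axis), 1 point a gene, coloured by class for 14865 of the 14918 tested genes (53 lie outside the axes). Genes called in HCT116 and not in LoVo form a vertical band around a LoVo effect of 0, and the 18 genes called in opposite directions lie in the upper left and lower right.

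Of the 347 genes called in both lines, 329 moved in the same direction, 174 upward and 155 downward, and for 242 of these the lines did not differ past the threshold. The overlap was 347 of the 5267 genes called in HCT116 and 347 of the 475 called in LoVo, so that HCT116 also called most of what LoVo did. Another 3560 genes were called in HCT116 and not in LoVo without a called difference, and 98 the other way round. These cannot be assigned to either line alone.

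Of the 10 genes that rose in HCT116 and fell in LoVo, 6 make an amino acid or load one onto its tRNA. ASNS, which makes asparagine (ENSG00000070669, chromosome 7, 97852118 to 97872542, minus strand, GRCh38), was at 358, 352, 378 and 347 CPM in HCT116 with 2-MiCit and 124, 126, 123 and 116 CPM in HCT116 controls. In LoVo it was at 146, 156, 160.4 and 146 CPM with 2-MiCit and 184, 192, 176 and 183 CPM in controls. Within each line the groups did not overlap, and they stood in opposite orders. ASNS was picked partly on that condition, so it is no separate evidence. Its effect was 1.55 ± 0.05 in HCT116 (adjusted p = 2.33e-12) and -0.27 ± 0.05 in LoVo (adjusted p = 0.00647), a difference of 1.82 ± 0.07 (adjusted p = 4.19e-11). LoVo controls held more ASNS than HCT116 controls, and 2-MiCit put HCT116 above LoVo. Of the 18 opposite genes, ASNS was the only one that kept this class under all 27 alternative analyses.

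PSAT1, an aminotransferase of serine synthesis (chromosome 9, 78297143 to 78330093), followed the same pattern. It was at 401, 391, 389 and 368 CPM in HCT116 with 2-MiCit and 197, 187, 175 and 179.7 CPM in HCT116 controls, and at 213, 220, 209 and 211 CPM in LoVo with 2-MiCit and 245, 262, 251 and 231 CPM in LoVo controls. Its difference was 1.28 ± 0.07 (adjusted p = 9.29e-09), and it kept the opposite call in 19 of the 27 alternatives. The 4 other members of this pattern all load tRNAs: GARS1 with glycine, SARS1 with serine, MARS1 with methionine and TARS1 with threonine. GARS1 was at 333, 343, 361 and 351 CPM in HCT116 with 2-MiCit and 265, 274, 267 and 285 CPM in HCT116 controls. In LoVo it was at 375, 379, 371 and 385 CPM with 2-MiCit and 426, 426, 411 and 419 CPM in controls. These shifts were small, and no library of one group reached the other in either line. The effects of GARS1 were 0.35 ± 0.04 in HCT116 and -0.16 ± 0.04 in LoVo (difference adjusted p = 4.64e-05). SARS1 was at 193, 183, 199 and 192 CPM in HCT116 with 2-MiCit and 157, 158, 162 and 152 CPM in HCT116 controls. Its LoVo level was 146, 149, 137 and 144 CPM with 2-MiCit and 163, 167, 161 and 186 CPM in controls. SARS1 differed by 0.52 ± 0.07 between the lines (adjusted p = 0.000198). MARS1 had effects of 0.22 ± 0.05 in HCT116 and -0.19 ± 0.05 in LoVo. TARS1 had effects of 0.16 ± 0.04 in HCT116 and -0.19 ± 0.04 in LoVo. The opposite call of these 4 synthetases rested on LoVo effects near the threshold and was kept in 24 of the alternatives for SARS1, 21 for TARS1, 13 for MARS1 and 11 for GARS1. Their difference between the lines was called in all 27.

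**Figure D2:**
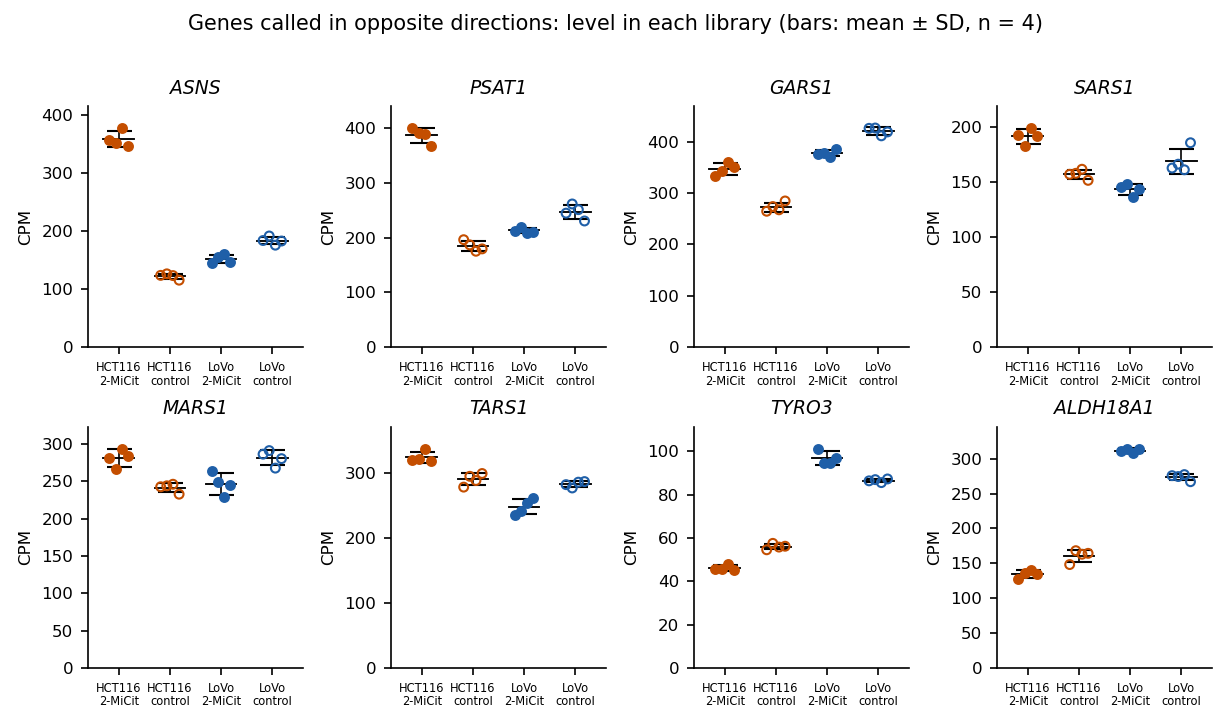
CPM of each library (points) and group mean (bars) for 8 genes called in opposite directions, with the groups HCT116 2-MiCit, HCT116 control, LoVo 2-MiCit and LoVo control from left to right. ASNS averaged 359 CPM in HCT116 with 2-MiCit and 122 CPM in HCT116 controls, against 152 CPM in LoVo with 2-MiCit and 183.5 CPM in LoVo controls.

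Several of these genes hold a match to the ATF4 element near their RefSeq start. The RefSeq promoters (GRCh38.p14, 250 bases before to 50 after the gene's first base) are shown for 4 amino acid genes of the comparison because each holds 1 match to the C/EBP-ATF core TGATGNAA, in capitals, searched on both strands. The match begins 68 bases before the start in ASNS, 209 before it in CHAC1, 4 before it in MARS1 and 2 after it in TARS1. These are RefSeq starts, which differ from the GENCODE gene bounds. The windows of CHAC1, MARS1 and TARS1 lie wholly within those bounds. Sequences are given 5′ to 3′ on the gene's strand, and in CHAC1, MARS1 and TARS1 the capitals are the reverse complement of the core.
ASNS (chr7:97872359-97872658, minus strand): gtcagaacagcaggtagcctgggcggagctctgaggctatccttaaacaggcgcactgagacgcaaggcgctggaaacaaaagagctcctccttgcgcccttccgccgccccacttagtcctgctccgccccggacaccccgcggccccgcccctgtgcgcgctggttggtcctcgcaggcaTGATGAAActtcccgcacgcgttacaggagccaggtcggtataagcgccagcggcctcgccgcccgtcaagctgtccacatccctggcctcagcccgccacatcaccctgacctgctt
CHAC1 (chr15:40953221-40953520, plus strand): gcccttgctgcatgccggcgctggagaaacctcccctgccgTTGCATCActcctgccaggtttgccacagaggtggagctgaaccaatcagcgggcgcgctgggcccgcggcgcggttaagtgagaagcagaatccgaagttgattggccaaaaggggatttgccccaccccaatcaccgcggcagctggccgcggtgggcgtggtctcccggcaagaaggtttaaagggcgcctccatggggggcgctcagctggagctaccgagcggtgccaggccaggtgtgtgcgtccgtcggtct
MARS1 (chr12:57487818-57488117, plus strand): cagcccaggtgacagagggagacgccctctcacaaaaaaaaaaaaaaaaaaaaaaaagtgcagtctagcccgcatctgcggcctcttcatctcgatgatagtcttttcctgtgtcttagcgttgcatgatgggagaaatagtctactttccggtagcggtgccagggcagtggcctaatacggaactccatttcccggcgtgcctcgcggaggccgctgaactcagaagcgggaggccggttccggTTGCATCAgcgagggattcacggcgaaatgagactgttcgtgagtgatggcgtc
TARS1 (chr5:33440715-33441014, plus strand): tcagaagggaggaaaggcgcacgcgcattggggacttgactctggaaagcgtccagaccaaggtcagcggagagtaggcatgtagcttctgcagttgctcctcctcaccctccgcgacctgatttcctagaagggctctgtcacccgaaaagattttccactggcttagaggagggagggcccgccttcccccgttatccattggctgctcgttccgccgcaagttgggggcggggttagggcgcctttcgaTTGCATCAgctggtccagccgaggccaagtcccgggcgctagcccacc
This core was in 181 of the 10689 promoters matched to tested genes (1.69%). It was in 3 of the 9 matched promoters of genes up in HCT116 and down in LoVo, in 6 of 14 synthetases and in 5 of 20 members of the ATF4 list. Of genes called in HCT116 and not in LoVo it was in 17 of the 464 matched that rose (3.66%) and 6 of the 577 that fell (1.04%). The match is a description of letters in these windows, not of binding.

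Across the whole list of amino acid and stress response genes regulated by ATF4, HCT116 was higher in 16 of the 26 tested members. It was lower in 1, against 4.81% higher and 5.65% lower of all tested genes. These shares apply to every list below. All lists were chosen with earlier results of these data known, so their counts and medians describe them and do not test them. In HCT116 20 members of the ATF4 list rose and 2 fell, beside 16.8% and 18.5% of all tested genes. In LoVo 1 rose and 2 fell, beside 1.86% and 1.32%. The median effect was 0.41 in HCT116 and -0.04 in LoVo, beside medians over all tested genes of 0.00077 in HCT116 and 0.012 in LoVo. CHAC1, which breaks down glutathione (chromosome 15, 40952962 to 40956519), was at 18.03, 16.7, 17.5 and 14.9 CPM in HCT116 with 2-MiCit and 5.74, 5.56, 4.65 and 3.84 CPM in HCT116 controls. In LoVo it was at 11.7, 10.2, 9.53 and 7.28 CPM with 2-MiCit and 14.4, 13.3, 11.4 and 12.8 CPM in controls. Every HCT116 library with 2-MiCit stood above every HCT116 control, while the LoVo libraries with 2-MiCit lay mostly below their controls (LoVo adjusted p = 0.0952). CHAC1 was picked partly for HCT116 groups that did not overlap. Its difference was 2.18 ± 0.20 (adjusted p = 6.44e-06). ALDH1L2, a mitochondrial folate enzyme, and PHGDH, the first enzyme of serine synthesis, had effects of 1.6 and 1.02 in HCT116 and 0.11 and -0.06 in LoVo. DDIT4, an inhibitor of mTORC1, had effects of 1.08 in HCT116 and -0.19 in LoVo. TRIB3, a pseudokinase, and DDIT3, the stress factor CHOP, rose by 0.66 and 0.44 in HCT116 and had effects of -0.28 (adjusted p = 0.0902) and -0.36 (adjusted p = 0.118) in LoVo. The member whose difference was called lower was ALDH18A1, the enzyme that starts proline synthesis from glutamate, described with the other opposite genes. The count of 1 lower was 2 without replicate 3 of HCT116 with 2-MiCit or replicate 4 of the HCT116 controls.

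The ATF4 list holds 5 amino acid transporter genes, SLC7A11, SLC7A5, SLC3A2, SLC7A1 and SLC38A2. All 5 rose in HCT116, 0 were called in LoVo, and the difference was called for 3, not for SLC7A1 and SLC38A2. SLC7A11, the cystine importer that also feeds glutathione synthesis, was at 101, 131, 101 and 141 CPM in HCT116 with 2-MiCit and 48.7, 60.6, 53.8 and 66.6 CPM in HCT116 controls. It was at 121, 136, 142 and 150.1 CPM in LoVo with 2-MiCit and 146, 143, 134 and 109 CPM in LoVo controls, groups that overlapped. Its effect was 1.04 ± 0.13 in HCT116 and 0.05 ± 0.12 in LoVo (difference adjusted p = 0.00202). SLC1A4, a neutral amino acid transporter chosen after its values were seen, had a mean of 17.6 ± 0.625 CPM in HCT116 with 2-MiCit and 5.88 ± 0.73 CPM in HCT116 controls (SD, n = 4 each). Its LoVo means were 22.4 ± 1.12 CPM with 2-MiCit and 18.8 ± 1.201 CPM in controls. The 2 subunits of the large neutral amino acid transporter, SLC7A5 and SLC3A2, rose by 0.51 and 0.26 in HCT116, with LoVo effects of -0.04 and -0.07. SLC7A2, a cationic amino acid transporter outside that list, went the other way. It was at 20.1, 25.9, 22.6 and 27.1 CPM in HCT116 with 2-MiCit and 28.2, 36.4, 31.9 and 41.4 CPM in HCT116 controls, with effects of -0.53 ± 0.12 in HCT116 and 0.31 ± 0.11 in LoVo (difference adjusted p = 0.00344).

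Of the 18 aminoacyl-tRNA synthetases tested, the difference was called higher in HCT116 for 9 and lower for 2. The count of 2 was 0 without replicate 2 of the HCT116 controls and with library totals, and 1 without any of 7 other libraries. In HCT116 8 rose and 4 fell, beside 16.8% and 18.5% of all tested genes. In LoVo 7 fell, in a line where 1.32% of all tested genes did. AARS1, which loads alanine, was at 339.7, 343, 347 and 344 CPM in HCT116 with 2-MiCit and 226, 237, 231 and 223 CPM in HCT116 controls. Its effects were 0.58 ± 0.05 in HCT116 and -0.17 ± 0.05 in LoVo (difference adjusted p = 7.07e-06). CARS1, which loads cysteine, had effects of 0.57 ± 0.06 in HCT116 and -0.07 ± 0.06 in LoVo. EPRS1, which loads glutamate and proline, and NARS1, which loads asparagine, rose by 0.23 and 0.13 in HCT116 and had LoVo effects of -0.13 and -0.14. YARS1, which loads tyrosine, had an effect of 0.07 in HCT116, not called, and fell by 0.18 in LoVo. KARS1, which loads lysine, fell by 0.42 in HCT116 with a LoVo effect of -0.14. QARS1, which loads glutamine, had effects of -0.09 in HCT116 and 0.14 in LoVo, neither called, and a called difference. Members therefore moved both ways in HCT116, although the 4 of 18 that fell are near the 18.5% of all tested genes.

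**Figure D3:**
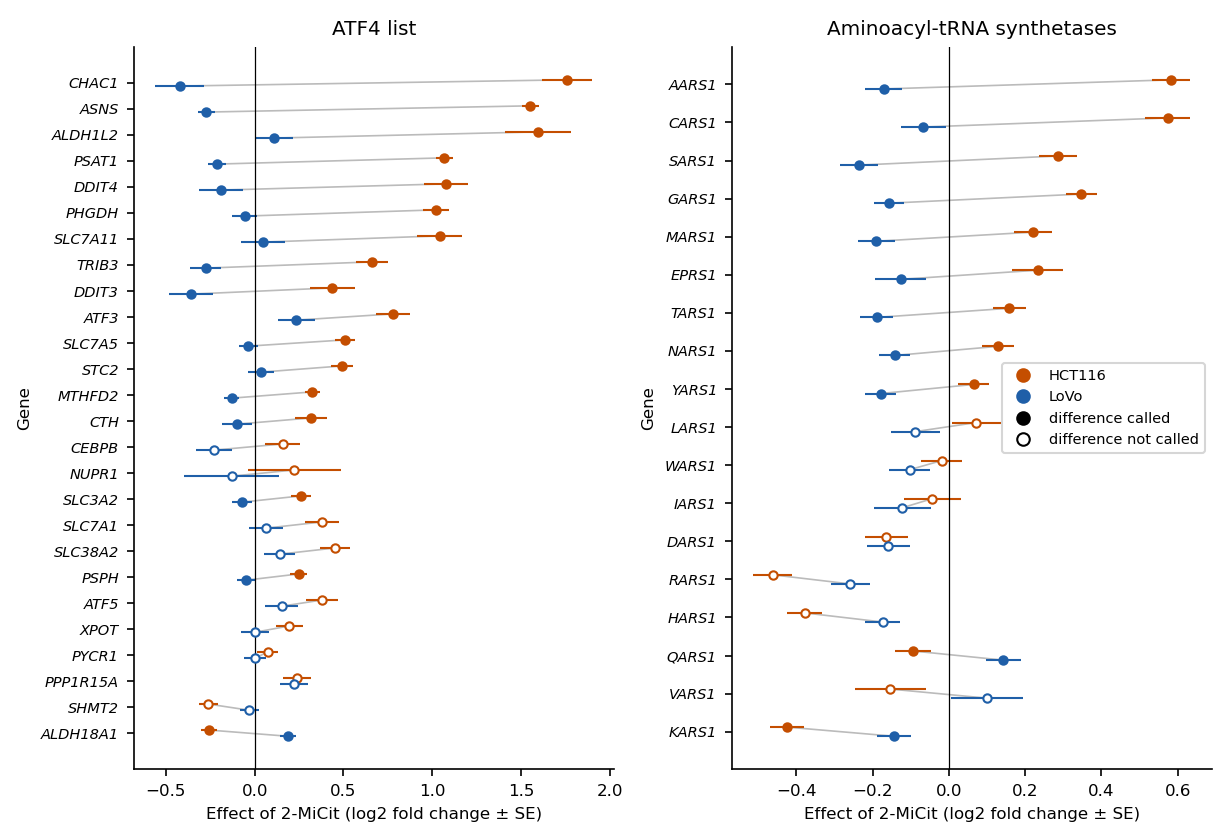
Log2 fold change of 2-MiCit over control with its SE in HCT116 and LoVo for the tested genes of the ATF4 list and the aminoacyl-tRNA synthetases, with filled symbols where the difference between the lines was called. The HCT116 points reach 1.76 for CHAC1, and the LoVo points lie near or below 0 for most genes.

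Other opposite genes that rose in HCT116 serve other roles. VSNL1, a neuronal calcium sensor (chromosome 2, 17539126 to 17657018), was at 7.71, 8.93, 9.06 and 7.76 CPM in HCT116 with 2-MiCit and 5.94, 5.98, 6.09 and 4.72 CPM in HCT116 controls. It was at 50.02, 47.4, 49.96 and 49.6 CPM in LoVo with 2-MiCit and 62.7, 59.1, 62.1 and 58.1 CPM in LoVo controls, so it was abundant in LoVo and scarce in HCT116, and its difference was 0.85 ± 0.11 (adjusted p = 0.000146). SGK1, a kinase of ion transport and cell survival, had effects of 0.43 ± 0.16 in HCT116 and -0.70 ± 0.17 in LoVo. PHLDA1, a growth factor response gene, had effects of 0.16 ± 0.06 and -0.22 ± 0.06 in the same order of lines. The HCT116 groups of PHLDA1 overlapped, and the opposite call was kept in 21 alternatives for VSNL1, 9 for PHLDA1 and 8 for SGK1.

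In the other direction, 8 genes fell in HCT116 and rose in LoVo. TYRO3, a receptor tyrosine kinase for the ligand GAS6 (chromosome 15, 41557675 to 41583586), was at 45.9, 45.6, 48.2 and 45.4 CPM in HCT116 with 2-MiCit and 54.5, 57.5, 55.8 and 56.2 CPM in HCT116 controls. It was at 101, 94.8, 94.5 and 97.1 CPM in LoVo with 2-MiCit and 86.4, 86.9, 85.6 and 87.2 CPM in LoVo controls. GAS6 itself rose in LoVo by 0.38 ± 0.07 and had an effect of 0.01 ± 0.06 in HCT116 (difference adjusted p = 0.0158). So in LoVo the receptor and its ligand both rose, although TYRO3 kept its opposite call in 9 of the 27 alternatives. ALDH18A1, of proline synthesis (chromosome 10, 95605929 to 95656706), was at 128, 136, 141 and 135 CPM in HCT116 with 2-MiCit and 148, 168, 163 and 164 CPM in HCT116 controls. Its LoVo level was 311, 314, 308 and 314 CPM with 2-MiCit and 276, 274, 277 and 267 CPM in controls, a difference of -0.45 ± 0.06 (adjusted p = 0.00028). ABHD12B, a predicted serine hydrolase (chromosome 14, 50872160 to 50904970), had effects of -0.29 ± 0.07 in HCT116 and 0.41 ± 0.07 in LoVo. PRKAR1B, a regulatory subunit of protein kinase A (chromosome 7, 549197 to 727650), had effects of -0.27 ± 0.09 in HCT116 and 0.33 ± 0.09 in LoVo. LIMK2, which phosphorylates cofilin and so slows actin turnover, had effects of -0.15 ± 0.05 in HCT116 and 0.24 ± 0.05 in LoVo. ZNF581, a zinc finger gene whose LoVo groups overlapped, had effects of -0.48 ± 0.10 in HCT116 and 0.40 ± 0.10 in LoVo. CD44, a hyaluronan receptor and Wnt target whose HCT116 groups overlapped, had effects of -0.18 ± 0.06 and 0.23 ± 0.06 in that order. The eighth has no symbol in the annotation used. The opposite call was kept in 24 of the alternatives for ABHD12B, 18 for LIMK2 and 17 each for ALDH18A1 and ZNF581. For PRKAR1B it was kept in 9, and for CD44 and the gene without a symbol in 7 each.

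Of 24 tested targets of p53, 17 rose in HCT116 and 2 in LoVo, beside 16.8% and 1.86% of all tested genes. The difference was called higher in HCT116 for 12 and lower for none, and the list's median effect was 0.43 in HCT116 and 0.07 in LoVo. CDKN1A, the cyclin-dependent kinase inhibitor p21 (chromosome 6, 36676460 to 36687339), was at 323, 288, 312 and 268 CPM in HCT116 with 2-MiCit and 187, 174, 171 and 163 CPM in HCT116 controls. It was at 77.6, 75.9, 64.6 and 66.1 CPM in LoVo with 2-MiCit and 69.7, 71.8, 66.8 and 67.6 CPM in LoVo controls. The HCT116 groups stood apart while the LoVo groups overlapped, and the effects were 0.78 ± 0.07 in HCT116 and 0.04 ± 0.07 in LoVo (difference adjusted p = 0.000197). BTG2, an antiproliferative factor, had effects of 0.85 ± 0.06 in HCT116 and 0.16 ± 0.06 in LoVo, and CCNG1, a cyclin in the p53 feedback loop, 0.57 ± 0.05 and 0.07 ± 0.05 in the same order of lines. GDF15, a secreted stress cytokine, and BBC3, the death gene PUMA, rose by 1.52 and 1.14 in HCT116, with LoVo effects of 0.29 and 0.32. The death receptors FAS and TNFRSF10B rose by 0.62 and 0.34 in HCT116, with LoVo effects of -0.03 and -0.0011. RRM2B, the p53-induced ribonucleotide reductase subunit, rose by 0.62 in HCT116 with a LoVo effect of -0.07. TP53I3 rose in both lines and further in HCT116, by 0.87 there and 0.45 in LoVo. GDF15 is also known as a target of ATF4.

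**Figure D4:**
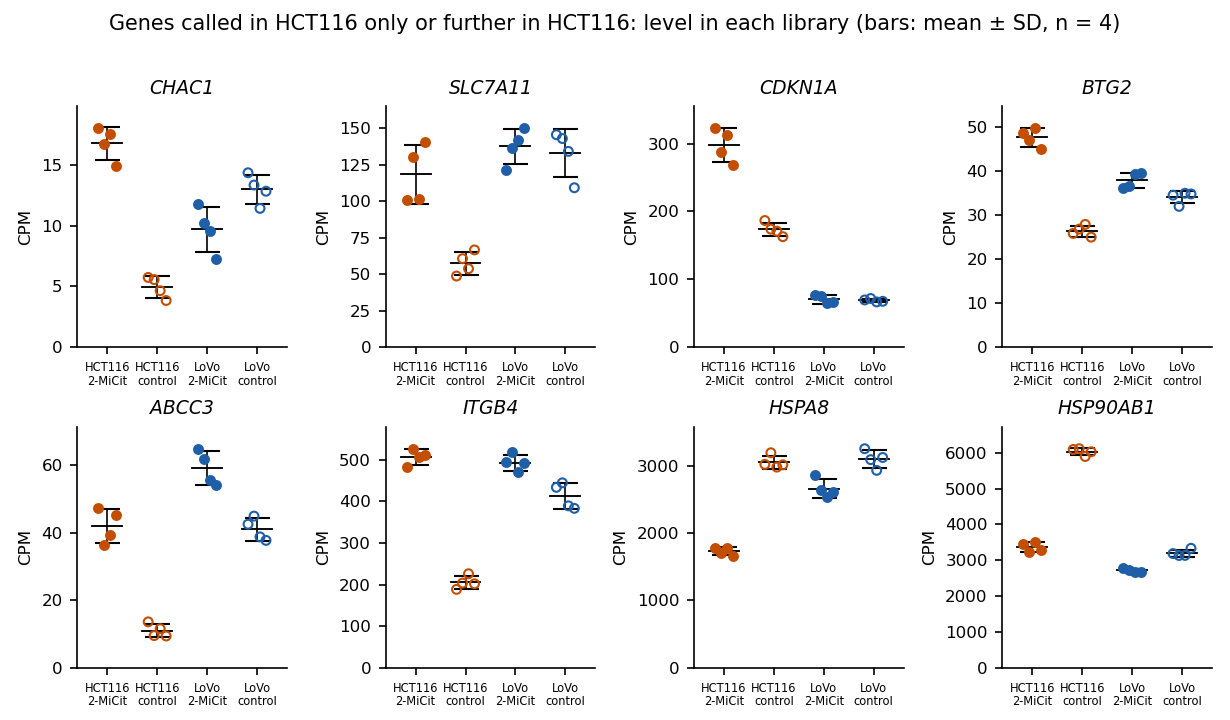
CPM of each library (points) and group mean (bars) for 8 genes called in HCT116 and not in LoVo, or further in HCT116, in the 4 groups. The HCT116 groups are apart in every panel, and the LoVo groups overlap for CHAC1, SLC7A11 and CDKN1A. CHAC1, ABCC3, ITGB4, HSPA8 and HSP90AB1 were picked partly for groups that did not overlap.

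Of 17 mesenchymal, TGF-beta and YAP target genes, 11 rose in HCT116, beside 16.8% of all tested genes. The difference was called higher in HCT116 for 4 and lower for none, with list medians of 0.53 in HCT116 and 0.12 in LoVo. TAGLN, which binds actin in smooth muscle (chromosome 11, 117199321 to 117204782), was at 18.5, 13.1, 16.8 and 15.6 CPM in HCT116 with 2-MiCit and 5.603, 2.81, 3.46 and 3.65 CPM in HCT116 controls. It was at 3.42, 3.47, 3.28 and 2.28 CPM in LoVo with 2-MiCit and 2.44, 2.34, 1.56 and 2.14 CPM in LoVo controls. It was scarce in both lines, and its difference was 1.5 ± 0.29 (adjusted p = 0.00298). THBS1, the matrix protein thrombospondin 1, had effects of 1.36 ± 0.09 in HCT116 and 0.12 ± 0.08 in LoVo, and ACTA2, smooth muscle actin, 1.61 ± 0.13 and 0.40 ± 0.12. TPM1, tropomyosin 1, rose by 0.33 in HCT116 with a LoVo effect of 0.0014. Of the fibroblast markers, PDGFRB was at 0.239 to 0.411 CPM in HCT116 with 2-MiCit and 0.0627 to 0.201 CPM in HCT116 controls, groups that did not overlap, and COL3A1 was at 0.063 CPM or less in every HCT116 library. COL1A1, which made up most of the fibroblast sum, was at 16.07 to 21.7 CPM in HCT116 with 2-MiCit and 14.5 to 22.01 CPM in HCT116 controls. Their part in the result was not tested.

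Of 14 genes of the epithelial anchor to the basement membrane, 8 rose and 2 fell in HCT116, and 3 rose in LoVo. Over all tested genes 16.8% rose and 18.5% fell in HCT116, and 1.86% rose in LoVo. The difference was called higher in HCT116 for 5 and lower for none. ITGB4, the integrin subunit that binds laminin-332 (chromosome 17, 75721328 to 75757818), rose in both lines and further in HCT116. It was at 482, 526, 505 and 512 CPM in HCT116 with 2-MiCit and 189, 204, 226 and 202 CPM in HCT116 controls, and at 494, 517, 470.3 and 492 CPM in LoVo with 2-MiCit and 434, 445, 389 and 383 CPM in LoVo controls. Its effects were 1.3 ± 0.06 in HCT116 and 0.26 ± 0.06 in LoVo (difference adjusted p = 2.81e-06). LAMA3 and LAMB3, chains of laminin-332, rose by 0.87 and 0.59 in HCT116. Their LoVo effects were 0.16 and 0.27, of which that of LAMB3 was called. PLAU, the urokinase protease, had effects of 0.97 ± 0.08 in HCT116 and 0.19 ± 0.10 in LoVo. The epithelial markers were mixed in HCT116. KRT8 was at 3351 to 3838 CPM in HCT116 with 2-MiCit and 2249 to 2443 CPM in HCT116 controls, and CDH1, E-cadherin, at 48.1 to 57.6 CPM and 32.4 to 40.1 CPM in the same order. KRT18 was at 1605 to 1800 CPM and 1024 to 1184 CPM in that order. EPCAM, an epithelial adhesion molecule, was at 316 to 342 CPM in HCT116 with 2-MiCit and 322 to 384 CPM in HCT116 controls, and CDX2 at 13.99 to 15.02 CPM and 16.5 to 16.6 CPM in that order. KRT20 and CDX1 had no reads in HCT116. Their part in the result was not tested. KRT80, an epithelial keratin chosen after its values were seen, averaged 44.2 ± 2.93 CPM in HCT116 with 2-MiCit and 14.8 ± 2.17 CPM in HCT116 controls, against 11.6 ± 0.752 CPM in LoVo with 2-MiCit and 9.89 ± 0.554 CPM in LoVo controls (SD, n = 4 each).

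By size of the difference, the first gene that rose in both lines and further in HCT116 was the export pump ABCC3. ABCC3, which exports organic anions and conjugated drugs (chromosome 17, 50634777 to 50692252), was at 47.4, 36.3, 39.2 and 45.2 CPM in HCT116 with 2-MiCit and 13.6, 9.57, 11.6 and 9.45 CPM in HCT116 controls. It was at 64.9, 61.8, 55.6 and 54.2 CPM in LoVo with 2-MiCit and 42.6, 44.95, 38.8 and 37.8 CPM in LoVo controls. It rose in both lines, by 1.93 ± 0.12 in HCT116 and 0.53 ± 0.11 in LoVo, and the difference was 1.4 ± 0.16 (adjusted p = 4.47e-05). ABCA3, a lipid transporter, rose by 1.39 ± 0.08 in HCT116 and 0.65 ± 0.07 in LoVo. ABCB1, the drug pump P-glycoprotein, fell by 0.34 in HCT116 with a LoVo effect of 0.11 ± 0.07, and its difference lost its call without 10 of the 16 libraries, each left out alone. Over the 12 pumps tested, 2 were higher in HCT116 and 1 lower, beside 4.81% higher and 5.65% lower over all tested genes. ARSD, a sulfatase family member, rose by 1.31 in HCT116 and 0.47 in LoVo.

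Genes of nutrient sensing and growth arrest under FOXO were higher in HCT116 for 5 of 16 and lower for none. Their median effects were above 0 in both lines, at 0.74 in HCT116 and 0.36 in LoVo. This list, like the others, was chosen with earlier results of these data known, so these medians describe it and do not test it. ARRDC4, an arrestin that responds to glucose, averaged 7.31 ± 0.815 CPM in HCT116 with 2-MiCit and 3.56 ± 0.151 CPM in HCT116 controls. It averaged 26.8 ± 0.6504 CPM in LoVo with 2-MiCit and 29.4 ± 0.517 CPM in LoVo controls, and the difference was 1.18 ± 0.11 (adjusted p = 7.05e-06). TSC22D3, the glucocorticoid-induced leucine zipper gene, had effects of 1.63 in HCT116 and 0.35 in LoVo. KLHL24 and IRS2, an insulin receptor substrate, rose by 1.21 and 0.93 in HCT116 and by 0.50 and 0.50 in LoVo. SLC2A1, the glucose importer GLUT1, was at 356, 364, 393 and 356 CPM in HCT116 with 2-MiCit and 249, 258, 260.2 and 248 CPM in HCT116 controls. In LoVo it had an effect of -0.16 ± 0.05, against 0.53 ± 0.05 in HCT116 (difference adjusted p = 8.52e-06). It was the only one of the 18 glycolysis genes called higher in HCT116, while 5 were lower, among them GAPDH and ENO1 with HCT116 effects of -0.37 and -0.36. That count of 5 was 3 with DESeq2's size factors and 8 with the transcript length trend removed. With library totals or in the fit over all 32 libraries that count was 1. It was 1 without replicate 2 of the HCT116 controls, 3 without replicate 2 or 4 of HCT116 with 2-MiCit, replicate 1 or 2 of LoVo with 2-MiCit or replicate 3 of the LoVo controls, and 8 without replicate 3 of HCT116 with 2-MiCit or replicate 4 of the LoVo controls.

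Feedback genes of the growth factor and ERK pathway were higher in HCT116 for 7 of 25 tested and lower for none. In HCT116 10 of them rose and 3 fell, beside 16.8% and 18.5% of all tested genes. In LoVo 2 rose and 3 fell, beside 1.86% and 1.32%. DUSP4 and DUSP6, phosphatases that switch off ERK, rose by 0.49 and 0.42 in HCT116, with LoVo effects of -0.08 and -0.11. KLF4, a zinc finger factor of intestinal differentiation, had effects of 0.44 ± 0.08 in HCT116 and -0.06 ± 0.07 in LoVo, and the stress factor ATF3 0.78 and 0.24. BIRC3, an NF-kappaB target that restrains cell death, averaged 9.17 ± 1.12 CPM in HCT116 with 2-MiCit and 3.59 ± 0.3696 CPM in HCT116 controls. It averaged 7.56 ± 1.02 CPM in LoVo with 2-MiCit and 7.91 ± 0.674 CPM in LoVo controls. BIRC3 was the only one of 11 NF-kappaB genes with a called difference, beside 10.5% of all tested genes. That count was 2 with library totals, with the transcript length trend removed and in the fit over all 32 libraries. It was also 2 by DESeq2 and without replicate 2 of LoVo with 2-MiCit. Of the 18 genes of the NRF2 oxidative stress response, 4 were higher in HCT116 (SLC7A11, TXNRD1, OSGIN1 and NQO1) and PGD was lower. The count of 4 was 7 with library totals. It was 6 with DESeq2's size factors, with the transcript length trend removed and without replicate 2 of the HCT116 controls. Without replicate 1 or 2 of LoVo with 2-MiCit or replicate 3 of the LoVo controls it was 2. PGD lost its call without any of 11 libraries. TXNRD1, thioredoxin reductase, rose by 0.43 in HCT116 with a LoVo effect of 0.01, and NQO1, a quinone reductase, by 0.53 with a LoVo effect of 0.23.

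Of the 6 genes that stood first by size of the difference among those called upward in HCT116 and not in LoVo, 4 were near the floor of detection in HCT116. LGR6, a stem cell receptor for R-spondin, had 6, 7, 6 and 8 reads in HCT116 with 2-MiCit and 0, 1, 0 and 0 reads in HCT116 controls. The ratio over the group was 26.7, with an exact 95% counting interval of 4.4 to 1090 that covers counting error only. LoVo held 247, 267, 256 and 215 reads with 2-MiCit and 213, 259, 205 and 202 reads in controls. MUC13, an intestinal mucin with 2151 to 3322 reads in each LoVo library, had 4, 5, 3 and 4 reads in HCT116 with 2-MiCit and 0, 1, 0 and 0 reads in HCT116 controls (ratio 15.8, interval 2.46 to 664). TBX2, a T-box repressor, had 14, 13, 10 and 12 reads in HCT116 with 2-MiCit and 0, 3, 1 and 0 in HCT116 controls (ratio 12.1, interval 4.44 to 46.2). SLPI, a protease inhibitor, had 4, 3, 4 and 3 reads in HCT116 with 2-MiCit and 1, 2, 0 and 0 in HCT116 controls (ratio 4.62, interval 1.29 to 25.1). Their fitted differences were called, but the sizes are not well determined. TNFRSF10C, a decoy death receptor, had effects of 1.09 in HCT116 and -1.39 in LoVo at means of 5.61 CPM in HCT116 with 2-MiCit and 2.63 CPM in HCT116 controls, against 0.0879 CPM in LoVo with 2-MiCit and 0.238 CPM in LoVo controls. The LoVo effect was not called (adjusted p = 0.217).

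All 13 heat shock chaperone genes tested fell in HCT116, and 8 of them also fell in LoVo, beside 18.5% and 1.32% of all tested genes. They are cytosolic chaperones and their helpers, with the mitochondrial chaperonins HSPD1 and HSPE1. HSPA8, the constitutive HSP70 (chromosome 11, 123057489 to 123063230), was at 1773, 1705, 1779 and 1660 CPM in HCT116 with 2-MiCit and 3019, 3191, 2978 and 3012 CPM in HCT116 controls. It was at 2860, 2635, 2537 and 2605 CPM in LoVo with 2-MiCit and 3251, 3089, 2930 and 3121 CPM in LoVo controls. HSP90AB1, the constitutive HSP90 (chromosome 6, 44246166 to 44253888), was at 3464, 3244, 3515 and 3283 CPM in HCT116 with 2-MiCit and 6088, 6109, 5892 and 6024 CPM in HCT116 controls. In LoVo it was at 2779, 2733, 2687 and 2677 CPM with 2-MiCit and 3187, 3133, 3136 and 3334 CPM in controls. No group overlapped its control in either line, and both genes were picked partly on that condition. HSPA8 fell by 0.82 in HCT116 and 0.22 in LoVo (difference -0.60 ± 0.07, adjusted p = 0.000105), and HSP90AB1 fell by 0.84 and 0.23 (difference -0.60 ± 0.07, adjusted p = 3.39e-05). The difference was called lower in HCT116 for 7 of the 13 and higher for none, and 6 of the 7 were called in both lines: HSP90AB1, HSPA8, STIP1, which links HSP70 to HSP90, HSPD1, the HSP40 DNAJA1 and HSPA4. The count of 7 was 3 in a fit over all 32 libraries of the table and 4 without replicate 2 of the HCT116 controls.

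Of 18 chaperones and stress genes of the endoplasmic reticulum, 10 fell and 1 rose in HCT116, and 3 fell in LoVo. Over all tested genes 18.5% fell and 16.8% rose in HCT116, and 1.32% fell in LoVo. The difference was called lower in HCT116 for 8 and higher for 1. HSPA5, the chaperone BiP (chromosome 9, 125234853 to 125241330), was at 875, 878, 979 and 857 CPM in HCT116 with 2-MiCit and 1418, 1431, 1415 and 1406 CPM in HCT116 controls. It was at 598, 572, 622 and 594 CPM in LoVo with 2-MiCit and 702, 697, 721 and 751 CPM in LoVo controls. Its effects were -0.66 ± 0.05 in HCT116 and -0.27 ± 0.05 in LoVo (difference adjusted p = 0.00167). CALR, a calcium-binding lectin chaperone, and MANF, a secreted stress factor, fell by 0.65 and 0.73 in HCT116, with LoVo effects of -0.19 and -0.24. DNAJB11 and HSP90B1 fell by 0.65 and 0.62 in HCT116 and by 0.26 and 0.25 in LoVo. The member higher in HCT116 was XBP1, a transcription factor of the unfolded protein response, with effects of 0.10 in HCT116 and -0.16 in LoVo, neither called, and its difference lost the call without any of 8 libraries. The count of 8 lower was 5 in the fit over all 32 libraries. The HSPA5 promoter is shown because it holds 1 full endoplasmic reticulum stress element, CCAAT and CCACG separated by 9 bases, in capitals, which begins 66 bases before the start (RefSeq, GRCh38.p14, both strands searched).
HSPA5 (chr9:125241294-125241593, minus strand): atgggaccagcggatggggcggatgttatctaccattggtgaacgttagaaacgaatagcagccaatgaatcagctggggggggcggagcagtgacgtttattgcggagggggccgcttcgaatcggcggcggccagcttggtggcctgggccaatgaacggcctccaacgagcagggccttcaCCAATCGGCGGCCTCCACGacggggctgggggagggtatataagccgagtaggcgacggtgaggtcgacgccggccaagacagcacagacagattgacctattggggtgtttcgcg
This element was in 14 of the 10689 matched promoters (0.131%) and in 6 of the 17 matched genes of the list. DDIT3 and TRIB3, which are targets of the PERK arm and sit on the ATF4 list, rose in HCT116 while these chaperones fell.

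Of 37 DNA replication genes, 35 fell in HCT116 and 1 in LoVo, beside 18.5% and 1.32% of all tested genes. The difference was called lower in HCT116 for 16 and higher for none, with list medians of -0.35 in HCT116 and -0.12 in LoVo. MCM2, a subunit of the replicative helicase (chromosome 3, 127598223 to 127622436), was at 222, 232, 239.7 and 234 CPM in HCT116 with 2-MiCit and 303, 316, 311 and 323 CPM in HCT116 controls. It was at 199, 203, 188 and 193 CPM in LoVo with 2-MiCit and 194, 189, 194 and 202 CPM in LoVo controls. Its effects were -0.43 ± 0.04 in HCT116 and 0.01 ± 0.04 in LoVo (difference adjusted p = 0.000198). The 5 helicase subunits MCM2, MCM3, MCM4, MCM5 and MCM7 fell by between 0.35 and 0.46 in HCT116 with LoVo effects between -0.12 and 0.03. The count of 16 was 10 in the fit over all 32 libraries and 9 without replicate 2 of the HCT116 controls.

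Of 28 genes of nucleotide synthesis, 24 fell in HCT116 and 3 in LoVo, beside 18.5% and 1.32% of all tested genes. The difference was called lower in HCT116 for 10 and higher for none. PFAS, an enzyme of purine synthesis (chromosome 17, 8247618 to 8270491), was at 54.2, 51.4, 48.8 and 58.2 CPM in HCT116 with 2-MiCit and 83.2, 89.02, 96.9 and 92.3 CPM in HCT116 controls. It was at 133, 139, 123 and 135 CPM in LoVo with 2-MiCit and 149, 139, 134 and 126 CPM in LoVo controls, with a difference of -0.72 ± 0.09 (adjusted p = 0.000151). CAD, which starts pyrimidine synthesis, had effects of -0.29 in HCT116 and 0.18 in LoVo. RRM2, the S-phase ribonucleotide reductase subunit, fell by 0.61 in HCT116 with a LoVo effect of -0.17, opposite in direction to RRM2B in HCT116. For ribosome biogenesis 9 of 22 were lower in HCT116 and none higher, with NCL (nucleolin) at -0.69 ± 0.06 in HCT116 and -0.17 ± 0.06 in LoVo. NOP56, a core protein of box C/D snoRNPs, fell by 0.69 in HCT116 and 0.24 in LoVo. That count of 9 was 4 in the fit over all 32 libraries and 4 without replicate 2 of the HCT116 controls.

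For mitosis 6 of 28 were lower in HCT116 and none higher, and the 6 were 3 in the fit over all 32 libraries. PLK1, a mitotic kinase, had effects of -0.55 ± 0.04 in HCT116 and -0.05 ± 0.04 in LoVo. CCNB1, cyclin B1, fell by 0.57 in HCT116 and 0.18 in LoVo, and CDC20, which activates the anaphase-promoting complex, by 0.71 and 0.28. Of 21 homologous recombination and Fanconi genes, 4 were lower, among them RAD54L, a recombination motor protein, at -0.76 ± 0.07 in HCT116 and -0.03 ± 0.07 in LoVo. Splicing kinases and SR proteins were lower in HCT116 for 9 of 18 and higher for none. SRSF1, an SR splicing factor, averaged 344 ± 9.37 CPM in HCT116 with 2-MiCit and 584 ± 22.8 CPM in HCT116 controls, against 487 ± 26.2 CPM in LoVo with 2-MiCit and 541 ± 21.3 CPM in LoVo controls (SD, n = 4 each). TRA2B, another splicing activator, fell by 0.73 in HCT116 and 0.18 in LoVo. Many SR protein genes make transcripts that are degraded, and a gene total does not separate them.

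Cholesterol genes were lower in HCT116 for 5 of 24 and higher for 1. The count of 5 was 3 with DESeq2's size factors or library totals and 2 in the fit over all 32 libraries. It was also 3 without replicate 2 of the HCT116 controls, replicate 1 or 3 of LoVo with 2-MiCit or replicate 2 of the LoVo controls. DHCR7, a sterol reductase, fell by 0.62 in HCT116, with a LoVo effect of -0.10 ± 0.06. LSS, which closes the sterol rings, had effects of -0.37 in HCT116 and 0.11 in LoVo. FASN, fatty acid synthase, was the only one of 12 fatty acid genes with a called difference, at -0.37 ± 0.07 in HCT116 and 0.13 ± 0.07 in LoVo. Wnt target and stem cell genes were higher for 1 of 17, SOX9 with 0.64 in HCT116 and 0.12 in LoVo. They were lower for 2, CD44 and TCF7. Intestinal differentiation genes were higher for 1 of 17 and lower for 2. The 1 higher was MUC13, near the floor of detection in HCT116. Its summed reads were 16 in HCT116 with 2-MiCit and 1 in HCT116 controls. Over all tested genes 4.81% were higher and 5.65% lower. CDX2, the intestinal master factor, fell by 0.27 in HCT116 with a LoVo effect of 0.05. The Wnt and intestinal counts rest on 1 and 2 genes in each direction, and the intestinal count of 2 was 0 without replicate 2 of the HCT116 controls and 1 without any of 7 other libraries. The Wnt count of 1 was 2 without replicate 4 of the LoVo controls, and the fatty acid count of 1 was 2 without replicate 1 of the HCT116 or LoVo controls and 0 in the fit over all 32 libraries.

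**Figure D5:**
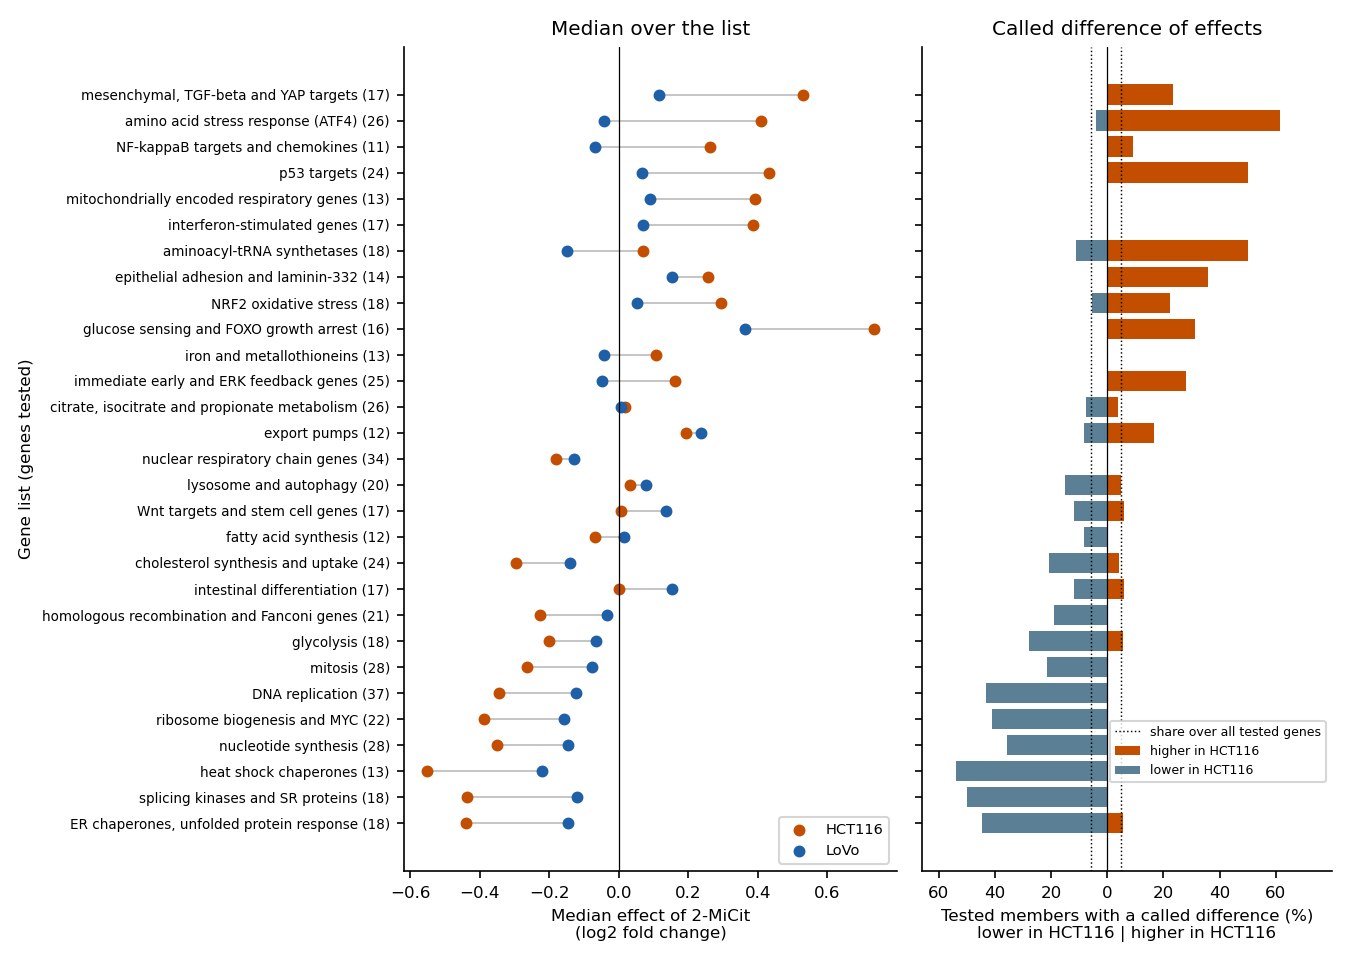
Left, the median log2 fold change of each of 29 gene lists in HCT116 and LoVo. Right, the percentage of each list's tested members whose difference was called higher or lower in HCT116, with dotted lines at 4.81% and 5.65%, the shares over all tested genes. By the percentages on the right, the ATF4, synthetase and p53 lists lie furthest toward higher in HCT116, and the heat shock, splicing and endoplasmic reticulum lists furthest toward lower.

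Some pathways gave no called difference by edgeR with TMM factors and all 16 libraries, namely 17 interferon-stimulated genes, 34 nuclear genes of the respiratory chain, 13 mitochondrially encoded genes and 13 genes of iron and metallothioneins. At an unadjusted p under 0.05, 4 interferon genes and 3 iron genes were higher in HCT116, and 5 respiratory chain genes and 1 interferon gene were lower. DESeq2 called 1 interferon gene and 2 iron genes higher and 1 respiratory chain gene lower. Other scalings and filters and the length correction in edgeR called up to 2 interferon and 4 iron genes higher, and up to 2 respiratory chain genes and 1 iron gene lower. With 1 library left out, 1 interferon gene was called higher in 2 of 16 cases and 1 or 2 iron genes in 5, and 2 respiratory chain genes were lower without replicate 4 of the LoVo controls. None of the mitochondrially encoded genes passed in these fits, where the SE of MT-CYB, for cytochrome b, was 0.30 in each line, although the mitochondrially encoded list had medians of 0.39 in HCT116 and 0.09 in LoVo. Of 26 genes that handle citrate, isocitrate and propionate, the metabolites nearest to 2-MiCit, 1 was higher and 2 were lower in HCT116. These counts are near the shares over all tested genes, 4.81% higher and 5.65% lower. MMUT, methylmalonyl-CoA mutase of propionate breakdown, had effects of 0.30 ± 0.06 in HCT116 and 0.01 ± 0.06 in LoVo (difference adjusted p = 0.0376). FH, fumarase, and SUCLA2, of succinyl-CoA synthetase, fell by 0.32 and 0.27 in HCT116, with LoVo effects of -0.08 and 0.01. Leaving out single libraries removed the call of MMUT in 9 of 16 cases and that of FH in 12, and without replicate 2 of the HCT116 controls 0 of the 26 were lower. Lysosome and autophagy genes were higher for 1 of 20 and lower for 3, beside the same 4.81% and 5.65%. The count of 3 was 1 without any of 14 of the 16 libraries and with DESeq2's size factors or library totals, and 0 in the fit over all 32 libraries. The 1 higher was lost without any of 6 libraries. In the other lists where no member was called in a direction, DESeq2 called 0 there as well, and at an unadjusted p under 0.05 the count was 0 in each but the mesenchymal list, with 1 gene lower.

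Of the 18 genes that rose in LoVo without a call in HCT116, SLC7A8, an exchanger of neutral amino acids (chromosome 14, 23125295 to 23183674), was at 2.96, 2.67, 2.24 and 2.62 CPM in HCT116 with 2-MiCit and 2.903, 2.96, 2.199 and 3.02 CPM in HCT116 controls, so HCT116 expressed little of it. It was at 87.7, 91, 84.02 and 82.6 CPM in LoVo with 2-MiCit and 56.6, 60, 48.6 and 49.5 CPM in LoVo controls. Its effects were -0.07 ± 0.13 in HCT116 and 0.68 ± 0.08 in LoVo (difference adjusted p = 0.00388). CASTOR2, a paralogue of the arginine sensor of mTORC1 (chromosome 7, 74964818 to 75024798), was at 15.1, 15.6, 15.1 and 15.9 CPM in HCT116 with 2-MiCit and 13.97, 17.2, 14.95 and 17.5 CPM in HCT116 controls. It was at 77.1, 79.7, 76.3 and 81.3 CPM in LoVo with 2-MiCit and 55.3, 57.9, 53.6 and 51.8 CPM in LoVo controls. The LoVo groups of both genes stood apart, a condition on which they were picked. CASTOR2 differed by -0.57 ± 0.09 (adjusted p = 0.000972). These 2 genes, with NOTCH2NLC, which has near-identical copies and is uncertain, kept the class in all 27 alternatives, NOTCH2NLC as a gene that fell in LoVo. SERINC2 had an effect of 0.06 in HCT116 and 0.43 in LoVo. ERBB3, a receptor for neuregulin, had effects of 0.14 in HCT116 and 0.55 in LoVo, and ETS2, a transcription factor, 0.05 and 0.31. The difference was called in 21 of the 27 alternatives for ERBB3 and in 16 for ETS2. COL1A1, a chain of collagen I, rose by 0.77 in LoVo at means of only 2.36 CPM with 2-MiCit and 1.38 CPM in controls, and its difference lost the call without 11 of the 16 libraries, each left out alone.

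Of the 12 genes that fell in LoVo without a call in HCT116, MRPS10, of the small mitochondrial ribosome subunit, was at 113, 114, 117 and 104 CPM in HCT116 with 2-MiCit and 103, 103, 101 and 108 CPM in HCT116 controls. In LoVo it was at 72.2, 77.5, 82.7 and 76.4 CPM with 2-MiCit and 90.6, 93.7, 97.9 and 93.95 CPM in controls. Its effects were 0.11 ± 0.05 in HCT116 and -0.28 ± 0.05 in LoVo (difference adjusted p = 0.00206). UFM1, a ubiquitin-like modifier of the endoplasmic reticulum, had effects of 0.13 in HCT116 and -0.24 in LoVo, and S100A11, a calcium-binding protein, 0.11 and -0.26. UFM1 kept this class in 11 of the 27 alternatives and S100A11 in 18. AMN1, PLS3, an actin-bundling protein, PLRG1, a spliceosome component, and KBTBD6, a ubiquitin ligase adaptor, fell by 0.46, 0.25, 0.24 and 0.35 in LoVo. For 10 of the 12 the 95% interval of the HCT116 effect lay within 1.2-fold of no change. It did so for 9 of the 18 that rose in LoVo. These sets lack an HCT116 call by definition.

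The same genes were read in another line of the table, DLD1, where 20 of 13551 genes were called (0.148%). Genes that rose in both lines and further in HCT116 had a median DLD1 effect of 0.23, and 32 of the 38 tested there were positive. Those that fell further in HCT116 had a median of -0.20, and none of the 47 was positive. The genes called in HCT116 and not in LoVo had smaller DLD1 medians, 0.11 for those that rose and -0.08 for those that fell. Genes without a called difference had DLD1 medians of 0.099 where the HCT116 effect was positive and -0.083 where it was negative. Of these, 64.9% and 36.4% were positive in DLD1, beside 50.2% of all tested genes. ASNS had an effect of 0.41 in DLD1 (adjusted p = 0.168), on the side of HCT116. VSNL1 had -0.55 (adjusted p = 0.253), on the side of LoVo. In SW948 the sets that rose had medians of -0.05 (further in HCT116) and -0.015 (called in HCT116 and not in LoVo). Those that fell had 0.03 and 0.004 in that order, so all 4 medians were opposite in sign to HCT116. Of the genes further in HCT116, 36.8% of those that rose and 66.0% of those that fell were positive in SW948. Genes without a called difference gave 41.1% where the HCT116 effect was positive and 59.35% where it was negative. The tests of HCT116 and LoVo do not use these libraries.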

How the data were processed

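The authors deposited raw counts per gene as whole numbers, in a table of 32 libraries that also holds DLD1 and SW948. RNA was extracted as total RNA and made into stranded mRNA libraries, per the labels' protocols. The submitters' processing notes name Salmon 1.5.0, Trimmomatic 0.39, bcl2fastq 2.20.0 and DESeq2. Salmon shares reads between similar transcripts, so pseudogenes and near-identical copies are uncertain. Of 16485 identifiers, 15329 matched GENCODE release 29 (GRCh38) coordinates and 1156 did not. Those without a match held 3.09 to 3.47% of a library's counts and stayed in the tests, unnamed.

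The 16 libraries of HCT116 and LoVo were fitted together with edgeR 4.0.16 in R 4.3.3 (filterByExpr, TMM factors, 1 coefficient per group, robust quasi-likelihood F test, two-sided). Benjamini-Hochberg adjustment ran over all 14918 tested genes, and a call is an adjusted p below 0.05. CPM use the TMM-scaled library sizes, except those of the cell type markers, which use library totals. The code was tested on simulated data, and no 2 libraries agreed within sampling noise. Alternatives were DESeq2 1.42.0, other scalings, filters, thresholds and samples, replicate blocks, a transcript length correction and each library left out.

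The members, gene lists, markers and rule for naming genes were chosen with earlier results of these data known. The rule names genes with at least 5 CPM in their highest group and no overlap of groups in the line that defines their class. These were the 6 with the largest difference in each direction among genes called in HCT116 and not LoVo, and 4 in each direction of the other classes. It adds up to 3 members of each of 29 lists by the smallest p. Further genes, chosen after their values were seen, are the remaining opposite genes and members of LoVo's class, 6 in each direction called in HCT116 and expressed at 1 CPM or more in all groups, and list members with a called difference. Promoters are from RefSeq (GRCh38.p14), with 10689 of 13708 tested genes matched. Some genes picked by that rule are not reported here.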

Additional observations from a re-analysis of the deposited data

Results flagged for a closer look

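The 2-MiCit effect differed between HCT116 and LoVo for 1561 genes, by the test of the difference itself. Among the named genes called in opposite directions, the difference of effects (HCT116 minus LoVo, log2) was 1.82 for ASNS, 1.28 for PSAT1 and 0.85 for VSNL1, which rose in HCT116 and fell in LoVo. It was -0.70 for ABHD12B, -0.60 for PRKAR1B, -0.45 for ALDH18A1 and -0.44 for TYRO3, which fell in HCT116 and rose in LoVo.

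In 21 of 436 groups of 4 libraries, over 109 named genes, 1 library stood far from the other 3, where chance gives about 1 group in 20. In HCT116 with 2-MiCit, replicate 3 was the library apart for HSPA5 at 979 CPM, TARS1 at 337 CPM, TYRO3 at 48.2 CPM, SLC11A2 at 32.3 CPM, MMUT at 25.3 CPM and TCF7 at 25.2 CPM. Replicate 4 of that group was apart for ATP6V1H at 36.95 CPM, with the others at 39.98 to 40.6 CPM, and for CYB561D2 at 4.81 CPM.

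Among HCT116 controls, replicate 3 stood apart for CCNG1 at 129 CPM, ACTA2 at 3.58 CPM and SLC7A8 at 2.199 CPM, and replicate 4 for VSNL1 at 4.72 CPM. Replicate 2 held the only read of LGR6 and of MUC13 in that group, 0.052 CPM each.

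In LoVo with 2-MiCit, replicate 2 stood apart for VSNL1 at 47.4 CPM and KLF4 at 45.3 CPM, replicate 4 for ATP6V1H at 38.1 CPM and TAGLN at 2.28 CPM, and replicate 1 for MAP1LC3B at 50.2 CPM. Among LoVo controls, replicate 1 stood apart for ATP5F1A at 860.3 CPM and replicate 2 for BTG2 at 31.99 CPM.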

How the results depend on the processing

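For the 108 named genes with a called difference, its direction was kept in the 25 alternatives that tested all of them and, with a mean of at least 5 CPM, for the 100 tested. Of these calls, 4 were lost with DESeq2's size factors, 8 with library totals, 16 in the fit over all 32 libraries, 20 at an adjusted p below 0.01 and 2 with DESeq2. Single libraries removed the call of ATP6V1H in 15 of 16 cases, FH in 12, COL1A1 in 11, ABCB1 in 10, MMUT in 9, CA2 in 8 and MAP1LC3B in 6. At an adjusted p below 0.01 there were 337 genes higher and 375 lower in HCT116, 672 called in HCT116 and not LoVo, 6 in LoVo and not HCT116, 12 further in HCT116 and 2 opposite. Library totals gave 1135 higher, 448 lower and 3 further in LoVo. The fit over all 32 libraries gave 355 lower, 873 in HCT116 and not LoVo, 14 in LoVo and not HCT116, 31 further in HCT116 and 5 opposite. Line effects fitted in each line alone gave 42 further in HCT116 and 7 opposite. With the transcript length trend removed there were 54 in LoVo and not HCT116, 182 further in HCT116, 1 further in LoVo and 35 opposite. DESeq2 gave 62, 220, 2 and 44 in the same order. The cause of these shifts was not tested, beyond the smaller threshold itself.

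With 1 library left out, 545 to 973 genes were higher and 379 to 1015 lower in HCT116, 1031 to 1787 were called in HCT116 and not LoVo, 12 to 45 in LoVo and not HCT116, 18 to 92 further in HCT116, 0 to 2 further in LoVo and 4 to 21 opposite. Genes further in HCT116 numbered 26, 18 and 50 without LoVo 2-MiCit replicates 1, 2 and 4, and 46 and 24 without LoVo control replicates 2 and 3. Genes called in LoVo and not HCT116 numbered 16 and 12 without LoVo 2-MiCit replicates 1 and 2, and 15 without LoVo control replicate 3. Opposite genes numbered 11 without HCT116 2-MiCit replicate 1 or 2 or HCT116 control replicate 2 or 3. They numbered 4, 4 and 6 without LoVo 2-MiCit replicates 1, 2 and 4, and 6 and 4 without LoVo control replicates 2 and 3. Without LoVo control replicates 1 and 4, 2 genes and 1 gene were further in LoVo.

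Nothing in the labels pairs libraries with the same number, and they were not taken as pairs. Their deviations correlated at 0.0606 to 0.258 in HCT116, above 0.1 in 3 of 4 pairs, with 2-MiCit replicate 2 closer to control replicate 4 (0.0968), and at -0.0244 to 0.0566 in LoVo. A replicate block within each line gave 942 genes higher and 1282 lower, 90 in LoVo and not HCT116, 243 further in HCT116, 6 further in LoVo and 49 opposite. A replicate block over both lines gave 689 higher and 801 lower. The block within each line called 3 mitochondrially encoded genes higher in HCT116 and the block over both lines 1, against 0 without a block. The first also gave 7 mesenchymal genes higher and 10 mitosis genes lower.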
